A study of Mus musculus with 6 samples.

Results

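The genes described here are 41 enzymes and carriers of fatty acid oxidation and synthesis, taken by gene symbol from a table of read counts with 53153 symbols. They fall into 4 genes of activation, 2 thioesterases, 5 genes of the carnitine shuttle, 17 of mitochondrial oxidation, 4 of peroxisomal oxidation and 9 of synthesis. On imatinib, 8 of the members were higher and 1 was lower, against 6.15% and 8.42% of all genes tested. The 8 were the carnitine carrier Slc25a20, the mitochondrial oxidation genes Acads, Hadh, Hadhb, Hsd17b10, Acaa2 and Acat1, and the acetate-activating enzyme Acss2. The 1 that was lower was Acsl1, which activates long-chain fatty acids.

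A fatty acid is first joined to coenzyme A by an acyl-CoA synthetase, and a thioesterase can undo that step. For oxidation in mitochondria the acyl group is carried across the inner membrane as an acylcarnitine, and it is then shortened in repeated rounds of dehydrogenation, hydration, a second dehydrogenation and thiolysis, each round releasing acetyl-CoA. Peroxisomes run a parallel pathway for very long and branched chains with their own enzymes, whereas synthesis builds chains in the cytosol from acetyl-CoA and malonyl-CoA. Growing effector T cells are known to build fatty acids, and memory T cells to use them as fuel.

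Bulk RNA-seq was performed on cells sorted from gastrointestinal stromal tumor (GIST) of C57BL/6J mice of the KitV558del/+ genotype aged 8 to 10 weeks, with 3 libraries from mice given vehicle and 3 from mice given imatinib. Imatinib, which inhibits the receptor tyrosine kinase KIT, was supplied for 1 week in drinking water that held 600 mg/L. All 6 libraries share the heterozygous activating Kit mutation, which gives rise to an intestinal GIST, and all carry the same batch label. The methods describe γδ T cells gated as CD45+CD3+NK1.1-TCRγδ+, while the series text names regulatory T cells of tumor and draining lymph node. Whether each library came from its own mouse is not stated in the labels, and p-values therefore cover the spread among libraries, which may be technical.

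The libraries held 21333897 to 25214210 counts of named genes, and levels are given as CPM, counts relative to the TMM-scaled library total. Of 16621 genes that passed a filter on low counts, edgeR's quasi-likelihood test called 1022 higher on imatinib and 1399 lower at an adjusted p under 0.05, and a gene is called higher or lower, or said to have risen or fallen, only at that threshold. Trdc, the δ chain constant segment, was at 373 to 1237 CPM in the 6 libraries. Markers of other cells were also present. The summed level of 13 macrophage and monocyte genes was 22504 to 29352 CPM on vehicle and 15030 to 27622 CPM on imatinib, against 1306 to 2636 CPM and 2760 to 4172 CPM for 11 γδ T cell genes. In bulk libraries, fewer cells of a type and less RNA per cell cannot be told apart.

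Upstream sequences of 32 of the 41 members were found in the RefSeq promoter table for GRCm38.p6. Those of the genes on which the results turn are shown 5′ to 3′ on the strand of the gene, so that the upstream letters of genes called higher (Slc25a20, Hsd17b10, Hadh and Hadhb) can be set beside those of Acsl1, which was called lower, and of Acox3 and Acaa1a, peroxisomal genes whose imatinib libraries all lay below the vehicle libraries. Capitals mark matches, on either strand, to the GC box GGGCGG, the CCAAT box CCAAT and the ETS site CCGGAAG. Each stretch ends at the base before the annotated start, except the first, which lies inside the 272 bases that separate the start of Hadha at 30154980 on the minus strand from that of Hadhb at 30155253 on the plus strand and belongs to both upstream windows.
Hadha and Hadhb, between their starts, chr5:30155003-30155230, plus strand: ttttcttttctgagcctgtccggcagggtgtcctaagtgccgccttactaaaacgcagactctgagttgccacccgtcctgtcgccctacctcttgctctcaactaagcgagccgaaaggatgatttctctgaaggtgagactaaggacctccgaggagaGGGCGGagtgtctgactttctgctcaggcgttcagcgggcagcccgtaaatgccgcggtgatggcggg
Slc25a20, chr9:108661986-108662135, plus strand: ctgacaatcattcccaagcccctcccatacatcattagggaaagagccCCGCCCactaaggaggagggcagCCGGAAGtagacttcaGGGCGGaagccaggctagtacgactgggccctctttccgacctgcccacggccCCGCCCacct
Hsd17b10, chrX:152001746-152001895, plus strand: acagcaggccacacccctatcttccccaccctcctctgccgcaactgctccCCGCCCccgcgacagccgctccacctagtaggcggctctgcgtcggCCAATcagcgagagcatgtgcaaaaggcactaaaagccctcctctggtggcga
Hadh, chr3:131272102-131272251, minus strand: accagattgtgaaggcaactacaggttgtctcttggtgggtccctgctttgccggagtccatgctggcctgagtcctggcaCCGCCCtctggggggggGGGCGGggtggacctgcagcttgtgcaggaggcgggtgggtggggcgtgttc
Acsl1, chr8:46470887-46471036, plus strand: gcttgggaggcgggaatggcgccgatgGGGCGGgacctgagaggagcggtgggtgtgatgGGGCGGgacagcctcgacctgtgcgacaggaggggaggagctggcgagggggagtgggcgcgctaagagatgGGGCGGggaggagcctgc
Acox3, chr5:35582884-35583033, plus strand: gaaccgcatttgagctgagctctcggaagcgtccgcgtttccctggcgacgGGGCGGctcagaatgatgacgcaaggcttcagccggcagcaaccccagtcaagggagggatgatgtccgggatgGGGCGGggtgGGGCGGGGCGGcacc
Acaa1a, chr9:119341144-119341293, plus strand: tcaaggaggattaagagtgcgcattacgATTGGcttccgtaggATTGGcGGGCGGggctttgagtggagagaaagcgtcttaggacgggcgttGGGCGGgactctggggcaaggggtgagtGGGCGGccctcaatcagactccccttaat

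No motif searched was found in every called-higher gene with an entry and in none of the other members. Within 250 bases before the start, the GC box was found in 21 of the 32 members (65.6%), against 35.4% of the 27025 genes in the table. It was present in 6 of 6 called-higher genes with an entry, and also in Acsl1 and in 3 of 3 peroxisomal genes. The CCAAT box was found in 17 members (53.1%, against 37.5% of all genes). The sequence TCAAGGTCA, bound by estrogen-related receptors, was found in 0 of 32 (0.422% of all genes). The DR1 element bound by PPAR with RXR, as an exact direct repeat of AGGTCA, was found in 0 of 32 (0.0407% of all genes). Sequences this rare in all genes would seldom be found among 32, so their absence cannot tell the members from other genes. The sterol element TCACNCCAC was found in 2 members (1.22% of all genes), upstream of Ehhadh and upstream of a second annotated start of Acsl1, whose stretch (chr8:46490816-46490965) is not the one printed. These matches are letters in a window and not measured binding. The shares of all genes here cover every gene in the promoter table, expressed in these libraries or not. The shares among the 16621 genes tested were not counted, so the contrasts may not be particular to fatty acid genes.

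Of the 41 members, 40 passed the filter on low counts and were tested. The 8 that rose compare with a background of 6.15% of all genes called higher, and the 1 that fell with 8.42% called lower. The log2 fold change was positive for 33 of the 40 and negative for 7, against 8515 positive and 8106 negative of all 16621 genes. The median was 0.31, against 0.014 for all genes. All 3 imatinib libraries lay above all 3 vehicle libraries for 18 members, and below them for 4, where 17.5% of all genes lay above and 20.2% below. A further 31 members did not pass the test, and Cpt1b was not tested. At an unadjusted p under 0.05, 17 members were on the higher side (14.2% of all genes) and 3 on the lower side (16.8% of all genes). DESeq2 called 12 higher and 2 lower, where it called 9.84% of all genes higher and 12.2% lower, adding Cpt1a, Acadm, Hadha and Scd2 to the genes called higher and Acox3 to those called lower. The count of members called higher depended on single libraries, as did that of all genes. Leaving out vehicle 1 gave 1, vehicle 2 gave 2, vehicle 3 gave 2, imatinib 1 gave 4, imatinib 2 gave 9 and imatinib 3 gave 2. In the same order, all genes called higher were 256, 254, 230, 586, 1171 and 182, against 1022 with all libraries. The count called lower was 0 without vehicle 2 and 2 without imatinib 2, and 1 without any other library.

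**Figure D1:**
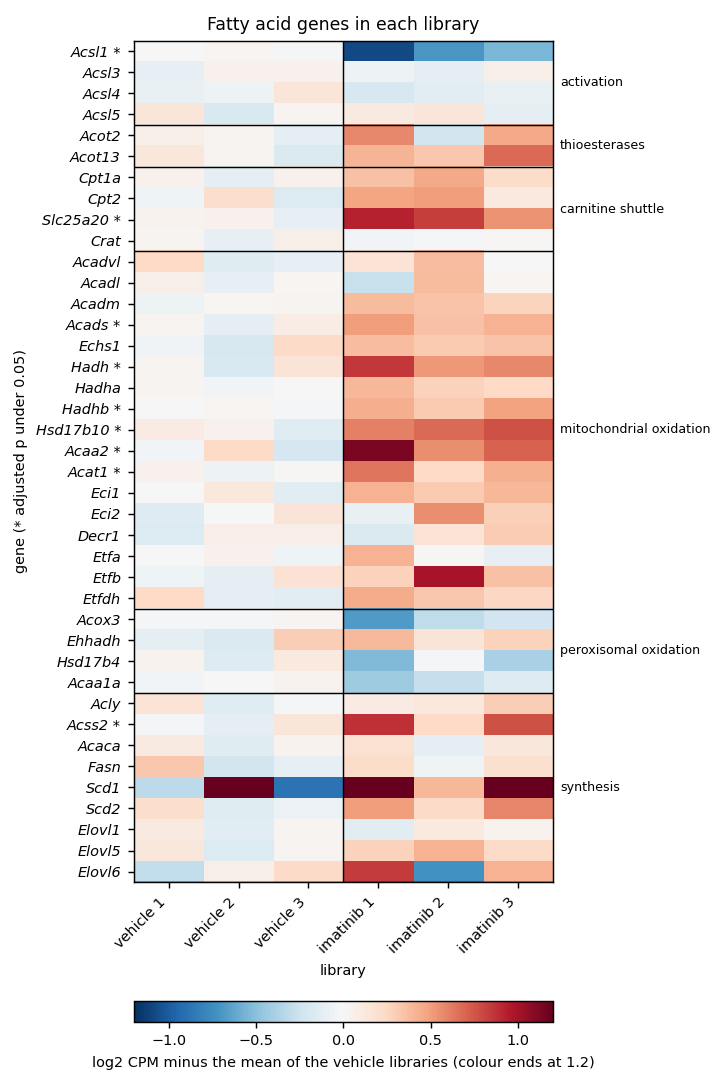
Level of each tested member in each of the 6 libraries, as log2 CPM minus the mean of the vehicle libraries (colour, ending at 1.2 in either direction), with genes in rows grouped by role and an asterisk at an adjusted p under 0.05. Most mitochondrial oxidation rows are red in all 3 imatinib columns, while Acsl1, Acox3 and Acaa1a are blue in all 3.

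Activation was the role in which a member fell. Acsl1, a long-chain acyl-CoA synthetase of the endoplasmic reticulum and the outer mitochondrial membrane (chromosome 8, 46471037 to 46536051, GRCm38), was at 84.1, 85.5 and 82.9 CPM in vehicle 1, 2 and 3 and at 39.8, 51.9 and 57.5 CPM in imatinib 1, 2 and 3. The vehicle libraries were close to one another, and every imatinib library lay below all of them. The change was -0.76 on the log2 scale (standard error 0.14, edgeR adjusted p = 0.0136), and the call was lost only without vehicle 2 (adjusted p = 0.0507). Acsl5, which had the highest level of this role per kilobase of exon, was at 155, 123 and 143 CPM on vehicle and at 151, 155 and 129 CPM on imatinib. Its groups overlapped, and it did not pass (log2 fold change 0.045). Acsl4, which prefers arachidonic acid, was at 66.5 to 77.9 CPM on vehicle and at 61.9 to 66.5 CPM on imatinib, with the highest imatinib library just below the lowest vehicle library (log2 fold change -0.14, adjusted p = 0.404). Acsl3, found on lipid droplets, had a log2 fold change of -0.039.

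The shift among the 4 synthetases was also visible as a share of their counts, which needs no scaling between libraries. Acsl1 made up 26.3%, 29.2% and 25.9% of the counts of Acsl1, Acsl3, Acsl4 and Acsl5 in the vehicle libraries and 14.9%, 18.2% and 21.4% in the imatinib libraries (27.1% ± 1.80 against 18.2% ± 3.24, SD, n = 3 each, of 5769 to 7833 counts). No imatinib library reached the lowest vehicle library, and the 95% Wilson intervals of the nearest pair, 20.3% to 22.4% in imatinib 3 and 24.9% to 26.9% in vehicle 3, did not meet. These intervals cover counting error only. Acsl5 made up 45% ± 3.12 on vehicle and 52.8% ± 4.43 on imatinib, with overlapping groups, and the share of Acsl4 was 22.8% ± 1.81 and 23.5% ± 1.14. With 3 libraries against 3, an exact two-sided permutation test cannot give a p below 0.1, so the shares were not tested.

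Neither thioesterase passed the test in edgeR or DESeq2, and 1 was on the higher side at an unadjusted p under 0.05 (14.2% of all genes). Acot13, a thioesterase associated with mitochondria, was at 14.4, 13.4 and 11.6 CPM on vehicle and at 17.4, 16.4 and 20.9 CPM on imatinib. All imatinib libraries lay above the vehicle libraries (log2 fold change 0.48, standard error 0.16, edgeR adjusted p = 0.0839). Acot2, its counterpart in the mitochondrial matrix, was at 6.54 to 7.39 CPM and 6.03 to 10.5 CPM, and the groups overlapped. Acot2 shares 95.1% of 1274 bases with Acot1, so its counts are uncertain.

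In the carnitine shuttle, Slc25a20 rose. It encodes the carnitine-acylcarnitine translocase of the inner mitochondrial membrane (chromosome 9, on the plus strand). Slc25a20 was at 14.8, 14.9 and 13.4 CPM on vehicle and at 27.3, 25.5 and 20.9 CPM on imatinib. Imatinib 3 was the lowest of its group and still above every vehicle library. The log2 fold change was 0.77 (standard error 0.15, edgeR adjusted p = 0.015). The call was lost without vehicle 1, vehicle 2 or vehicle 3, in each case with an adjusted p of at most 0.0582, and was kept without each imatinib library.

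The outer membrane enzyme Cpt1a, which makes acylcarnitines and is the rate-limiting step of entry, was at 58.3, 52.4 and 58.4 CPM on vehicle and at 71.8, 77.2 and 65.5 CPM on imatinib. The groups did not overlap, and Cpt1a missed the threshold in edgeR (log2 fold change 0.34, standard error 0.11, adjusted p = 0.0649) but passed in DESeq2 (adjusted p = 0.0458). Cpt2, which regenerates the acyl-CoA inside, was at 10.8 to 14.0 CPM and 13.1 to 17.1 CPM (log2 fold change 0.36, edgeR adjusted p = 0.204). Crat, the carnitine acetyltransferase, was at 29.6 to 33.2 CPM and 31.0 to 32.0 CPM, with a log2 fold change of -0.012. Cpt1b, the muscle form of Cpt1a, was barely detected. It had 10, 6 and 1 counts in the vehicle libraries and 0 in each imatinib library, and it was left out of the test. For an observed count of 0 the upper 95% limit is about 3 counts, which would be 0.134 to 0.148 CPM in the imatinib libraries.

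**Figure D2:**
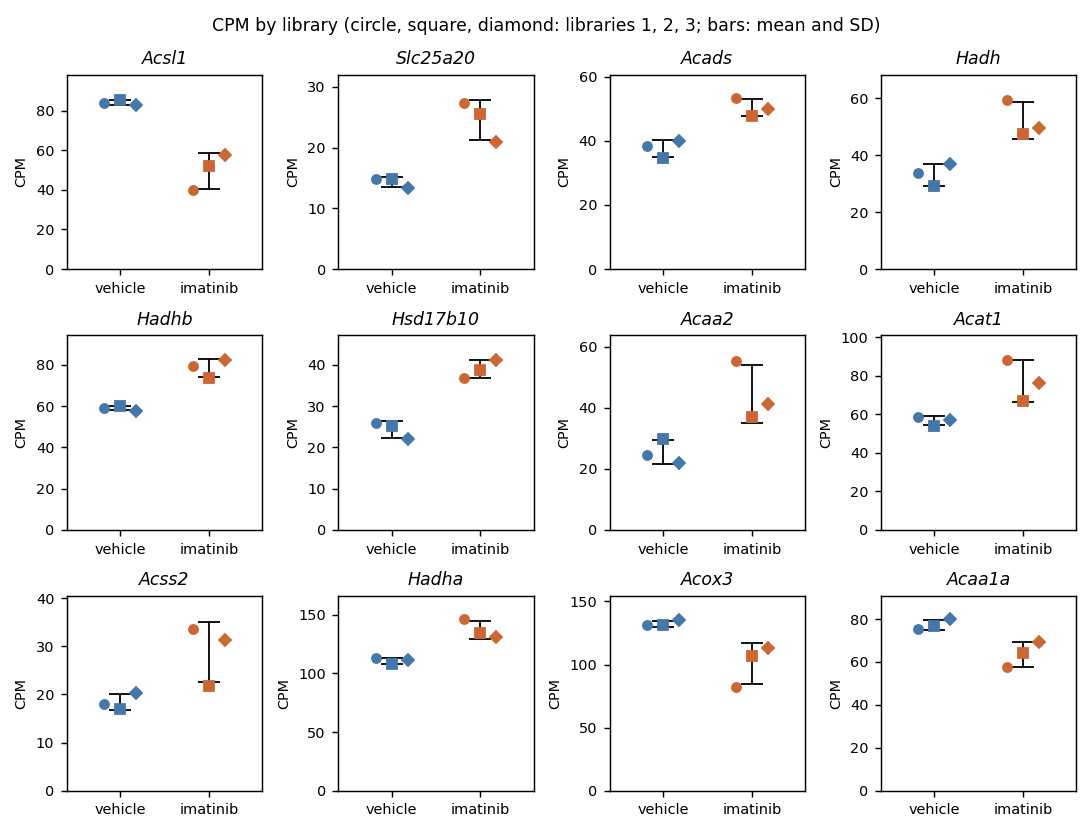
CPM (y axis, from 0) in the vehicle and imatinib libraries for the 9 members that passed the test and for Hadha, Acox3 and Acaa1a. Points are libraries and black bars show the mean and SD (n = 3). In each panel the groups do not overlap.

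Mitochondrial oxidation held most of the genes that rose. Of its 17 members, 6 rose, 0 fell and 11 did not pass, where 6.15% of all genes rose and 8.42% fell. The log2 fold change was positive for all 17, from 0.07 to 0.81, with a median of 0.33. Of the 17, 12 had every imatinib library above every vehicle library, as had 17.5% of all genes. None was on the lower side in DESeq2 or at an unadjusted p under 0.05. At that p, 11 were on the higher side (14.2% of all genes), and DESeq2 called 8 higher (9.84% of all genes). The number that rose was 1 when vehicle 1 was left out, 2 for vehicle 2 and 2 for vehicle 3. It was 3 for imatinib 1, 6 for imatinib 2 and 1 for imatinib 3, and Hsd17b10 alone passed each time. The number of all genes called higher also fell in these fits, except without imatinib 2, as given above.

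The first dehydrogenation is carried out by acyl-CoA dehydrogenases that differ in chain length. Acads, the short-chain enzyme, was at 38.5, 34.5 and 39.8 CPM on vehicle and at 53.2, 47.8 and 50 CPM on imatinib. Every imatinib library lay above the highest vehicle library, vehicle 3. Acads had a log2 fold change of 0.42 (standard error 0.11, edgeR adjusted p = 0.0382), and the call was kept only without imatinib 2, with an adjusted p of up to 0.127 without vehicle 2. Acadm, the medium-chain enzyme, was at 32.4 to 34.6 CPM on vehicle and at 40.7 to 43.9 CPM on imatinib. These groups did not overlap, and Acadm missed the threshold in edgeR (log2 fold change 0.33, adjusted p = 0.0644) and passed in DESeq2 (adjusted p = 0.0492). The long-chain enzyme Acadl, at 51.1 to 57.6 CPM and 45.5 to 71.3 CPM, and the very-long-chain enzyme Acadvl, at 23.5 to 30.6 CPM and 25.8 to 33.4 CPM, overlapped between groups and had log2 fold changes of 0.07 and 0.17. Within this family of 4, the log2 fold changes were thus largest for the short and medium chains, and this order was not tested.

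Hydration and the second dehydrogenation are shared by Echs1, Hadh, Hsd17b10 and the trifunctional protein, whose α and β chains are Hadha and Hadhb. Hadh, the dehydrogenase for short and medium chains (chromosome 3), was at 33.7, 29.1 and 36.8 CPM on vehicle and at 59.5, 47.4 and 49.4 CPM on imatinib. The highest vehicle library was well below the lowest imatinib library. For Hadh the log2 fold change was 0.65 (standard error 0.14, edgeR adjusted p = 0.0198), with an adjusted p of up to 0.0719 when 1 library was left out (vehicle 1). Hsd17b10, which oxidises short and branched hydroxyacyl-CoA and is also a subunit of mitochondrial RNase P (chromosome X), was at 25.9, 25.1 and 21.9 CPM on vehicle and at 36.8, 38.8 and 41.1 CPM on imatinib. Both groups were tight and far apart. Its log2 fold change was 0.68 (standard error 0.12, edgeR adjusted p = 0.0118), and the call was kept in 6 of 6 fits that left out 1 library (adjusted p of 0.0155 to 0.0493).

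The trifunctional protein chains are encoded head to head on chromosome 5 and share the upstream stretch shown above. Hadhb was at 59.2, 59.9 and 57.9 CPM on vehicle and at 79.6, 73.5 and 82.3 CPM on imatinib. The vehicle libraries were close to one another, and the groups did not overlap. Hadhb had a log2 fold change of 0.41 (standard error 0.10, edgeR adjusted p = 0.0274), and the call was kept only without imatinib 2, with an adjusted p of up to 0.0946 without vehicle 3. Hadhb shares 99.8% of 1428 bases with Gm13910 and 97.6% of 1426 bases with Gm9108, so its counts are uncertain. Hadha, the member of this role with the most counts, was at 113, 108 and 111 CPM on vehicle and at 146, 134 and 131 CPM on imatinib. Here, too, the groups did not overlap. Hadha had a log2 fold change of 0.31 (standard error 0.10) and missed the threshold in edgeR (adjusted p = 0.0639), whereas DESeq2 called it (adjusted p = 0.028). Echs1, the short-chain enoyl-CoA hydratase, was at 30.3 to 40.6 CPM and 43.1 to 44.6 CPM (log2 fold change 0.33, edgeR adjusted p = 0.121).

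The thiolases Acaa2 and Acat1 both rose. Acaa2, a thiolase of the mitochondrial matrix, was at 24.6, 29.7 and 21.9 CPM on vehicle and at 55.2, 37.0 and 41.2 CPM on imatinib. Imatinib 1 was the highest, and all 3 imatinib libraries lay above the vehicle libraries. With a log2 fold change of 0.81 (standard error 0.18, edgeR adjusted p = 0.0227), Acaa2 had the largest change among the mitochondrial members, and its adjusted p reached 0.0833 without vehicle 1. Acat1, which splits acetoacetyl-CoA and also acts in ketone body and isoleucine breakdown, was at 58.8, 54.1 and 57.0 CPM on vehicle and at 88.5, 67.0 and 76.3 CPM on imatinib. Again imatinib 1 was the highest library and the groups did not overlap. For Acat1 the log2 fold change was 0.45 (standard error 0.12, edgeR adjusted p = 0.0429). Its call was kept only without imatinib 2, and the adjusted p was 0.134 without vehicle 2.

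Auxiliary enzymes and electron carriers did not pass. Eci1, an isomerase for unsaturated chains, was at 13.3 to 15.9 CPM on vehicle and at 18.1 to 19.5 CPM on imatinib, without overlap (log2 fold change 0.37, edgeR adjusted p = 0.107). Eci2 and Decr1, which also serve unsaturated chains, overlapped between groups, with log2 fold changes of 0.27 and 0.11. Etfa, Etfb and Etfdh pass electrons from the acyl-CoA dehydrogenases to ubiquinone, and their log2 fold changes were 0.13, 0.57 and 0.33. The imatinib libraries lay above the vehicle libraries for Etfb and Etfdh and overlapped them for Etfa. Etfb was at 4.22 to 9.10 CPM.

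**Figure D3:**
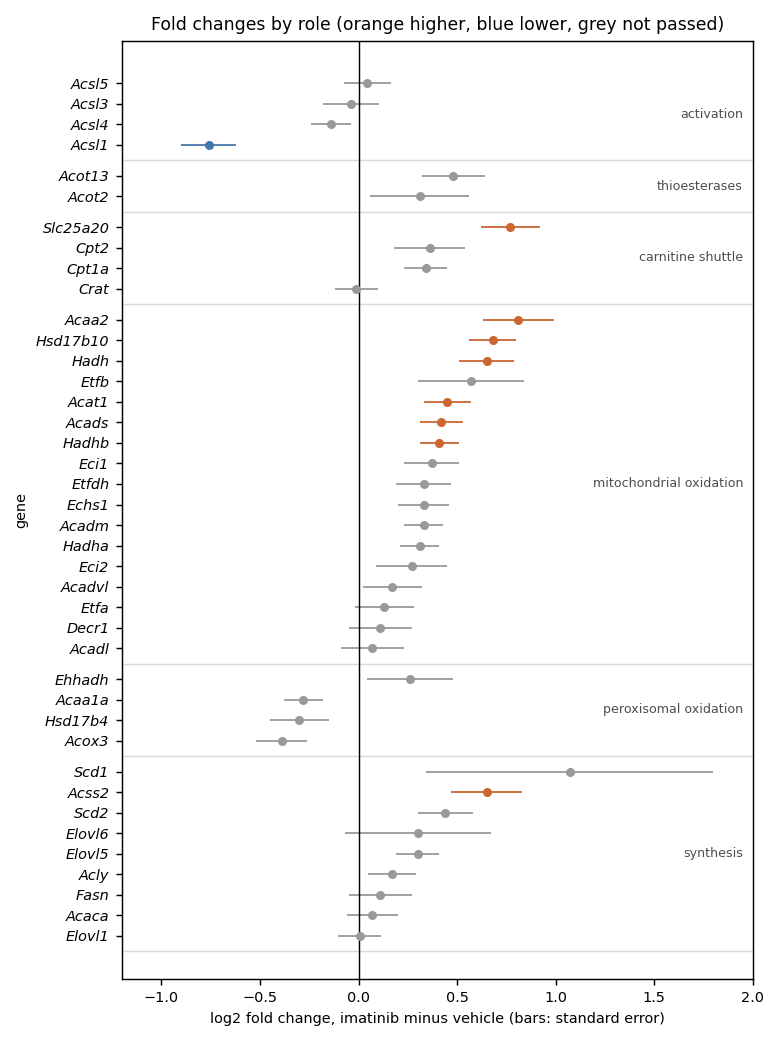
Log2 fold change of imatinib against vehicle (x axis) with its standard error (bars) for the 40 tested members, ordered within each role. Orange marks the 8 called higher, blue the 1 called lower and grey the 31 that did not pass. All 17 mitochondrial members lie right of 0, and 3 of 4 peroxisomal members lie left of it.

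Peroxisomal oxidation stood on the other side of 0 without any member passing. edgeR called 0 of its 4 members in either direction. At an unadjusted p under 0.05, 2 were on the lower side (16.8% of all genes), and DESeq2 called 1 lower (12.2% of all genes). The median log2 fold change was -0.29. Acox3, the oxidase for branched chains, was at 131, 131 and 135 CPM on vehicle and at 82.4, 107 and 113 CPM on imatinib. The vehicle libraries were nearly equal and all above the imatinib libraries. Acox3 had a log2 fold change of -0.39 (standard error 0.13, edgeR adjusted p = 0.0777, DESeq2 adjusted p = 0.0446). Acaa1a, the peroxisomal thiolase, was at 75.4, 76.9 and 79.8 CPM on vehicle and at 57.7, 64.0 and 69.3 CPM on imatinib. Its groups did not overlap either (log2 fold change -0.28, standard error 0.10, edgeR adjusted p = 0.106). Acaa1a shares 96.6% of 1428 bases with Acaa1b, and 224 bases with Myd88 on the other strand, so its counts are uncertain.

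Hsd17b4, the D-bifunctional protein, was at 131, 115 and 138 CPM on vehicle and at 88.3, 126 and 97.5 CPM on imatinib. Imatinib 2 lay within the range of the vehicle libraries. Hsd17b4 did not pass (log2 fold change -0.30, edgeR adjusted p = 0.198), but it was called lower without imatinib 2 (adjusted p = 0.0337). Ehhadh, the L-bifunctional enzyme and the least expressed of the 4, was at 6.04 to 8.35 CPM and 7.57 to 8.90 CPM, with a log2 fold change of 0.26.

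Summed levels put these roles side by side. The 17 mitochondrial genes summed to 629.5, 603 and 622 CPM on vehicle and to 827, 785 and 776 CPM on imatinib (618 ± 13.9 against 796 ± 27.0, SD, n = 3 each). The 4 peroxisomal genes summed to 343, 329 and 361 CPM on vehicle and to 237, 304 and 288 CPM on imatinib (344 ± 16.4 against 276 ± 34.9). Neither pair of groups overlapped, and they lay in opposite order. The carnitine shuttle summed to 111 to 117 CPM and 132 to 151 CPM, and the activation genes to 293 to 319.8 CPM and 267 to 285 CPM, again without overlap. The thioesterases summed to 18.2 to 21.8 CPM and 22.5 to 30.6 CPM. Synthesis was the role whose groups overlapped, at 685 to 794 CPM on vehicle and 789.6 to 995 CPM on imatinib. The difference between roles was not tested.

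Synthesis showed a more scattered pattern. Of 9 members, 1 rose, 0 fell and 8 did not pass, where 6.15% of all genes rose. The log2 fold change was positive for all 9, from 0.0059 to 1.07, with a median of 0.30. DESeq2 called 2 higher and 0 lower (9.84% and 12.2% of all genes). At an unadjusted p under 0.05, 3 were on the higher side and 0 on the lower side (14.2% and 16.8% of all genes). Acss2, which makes acetyl-CoA from acetate in the cytosol and nucleus (chromosome 2), was at 18, 16.9 and 20.3 CPM on vehicle and at 33.6, 21.7 and 31.2 CPM on imatinib. Imatinib 2 was only slightly above the highest vehicle library. Acss2 had a log2 fold change of 0.65 (standard error 0.18, edgeR adjusted p = 0.045). The call was kept only without imatinib 2 (adjusted p = 0.0103), and the adjusted p rose to 0.14 without vehicle 2.

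The main line from citrate to palmitate showed smaller differences. Acly, which makes cytosolic acetyl-CoA from citrate and had the highest level of this role per kilobase of exon, was at 221, 179 and 195 CPM on vehicle and at 211, 216 and 243 CPM on imatinib. Fasn, the fatty acid synthase, was at 157, 108 and 117 CPM and at 146, 121 and 144 CPM. Both overlapped between groups, with log2 fold changes of 0.17 and 0.11 (edgeR adjusted p = 0.346 and 0.68). Acaca, the carboxylase that makes malonyl-CoA, had a log2 fold change of 0.07. Acaca shares 99.2% of 6118 bases with Gm5182, so its counts are uncertain.

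Desaturation and elongation diverged by gene. Scd2, a stearoyl-CoA desaturase, was at 147, 115 and 121 CPM on vehicle and at 179.6, 149 and 191 CPM on imatinib. The groups did not overlap, though vehicle 1 and imatinib 2 were close. Scd2 missed the threshold in edgeR (log2 fold change 0.44, standard error 0.14, adjusted p = 0.0646), while DESeq2 called it (adjusted p = 0.0255), as did edgeR without imatinib 2 (adjusted p = 0.0319). Scd1, its paralogue, was at 33.1, 94.3 and 22.3 CPM on vehicle and at 101, 54.1 and 159 CPM on imatinib. Vehicle 2 was nearly as high as imatinib 1, and imatinib 2 lay below vehicle 2. With a log2 fold change of 1.07 and a standard error of 0.73, Scd1 had the largest error of all members, and it did not pass (edgeR adjusted p = 0.395). Its log2 fold change was 1.91 without vehicle 2, 0.71 without vehicle 3 and 0.63 without imatinib 3. The share of Scd1 in the counts of both desaturases ranged from 15.6% to 45% on vehicle and from 26.7% to 45.4% on imatinib. Scd1 and Scd2 share 95.5% of 623 bases, so reads may have been split between them. Similar or antisense sequence of other genes also overlaps Acsl3, Acadvl, Eci2, Etfa, Etfb, Acox3, Elovl6 and Cpt1b.

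Among the elongases, Elovl5, which extends polyunsaturated chains, was at 68.3 to 83.9 CPM on vehicle and at 90.0 to 102 CPM on imatinib, without overlap (log2 fold change 0.30, edgeR adjusted p = 0.104). Elovl1, which makes very long saturated chains, was at 72.1 ± 6.13 CPM and 72.4 ± 6.35 CPM. Elovl6 was at 6.94 to 9.99 CPM and 5.14 to 15.3 CPM, and its groups overlapped.

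Per kilobase of exon, the scale on which genes can be compared with one another, the highest mean level over the 6 libraries among the members was that of Acly (39.9 CPM per kb), followed by Hsd17b4 (34.1), Acsl5 (29.3), Acadl (28.0), Scd2 (27.5) and Elovl1 (26.5). The lowest were Cpt1b (0.0358) and Elovl6 (1.49). Exon lengths were the union of all annotated exons, which lowers the value of genes with retained introns.

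Other genes of fatty acid metabolism were counted in the same fit, in which 6.15% of all genes rose and 8.42% fell. Of 23 other oxidation enzymes, 4 rose and 1 fell, with a median log2 fold change of 0.21. Acot7, a cytosolic acyl-CoA thioesterase, was at 42.6, 52.3 and 40.1 CPM on vehicle and at 75.4, 94.2 and 91.5 CPM on imatinib (log2 fold change 0.95, edgeR adjusted p = 0.00733). Scp2, a peroxisomal thiolase and lipid transfer protein, rose by 0.55 on the log2 scale (adjusted p = 0.0114). Oxct1, which activates ketone bodies for oxidation, rose by 0.81 (adjusted p = 0.012), and Crot, the peroxisomal carnitine octanoyltransferase, by 0.51 (adjusted p = 0.0268). Scp2 and Crot are thus peroxisomal genes that rose while no peroxisomal member did. The 1 that fell was Acss1, the mitochondrial counterpart of Acss2, which went from 61.8 to 46.2 CPM (log2 fold change -0.42, edgeR adjusted p = 0.0464).

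Storage and lipolysis held 2 genes of 14 that rose and 0 that fell in edgeR, with 2 higher and 0 lower both in DESeq2 and at an unadjusted p under 0.05. Of all genes, 6.15% were higher in edgeR, 9.84% in DESeq2 and 14.2% at that unadjusted p. G0s2, an inhibitor of the lipase ATGL, was at 1.84, 2.54 and 2.20 CPM on vehicle and at 7.10, 10.2 and 5.88 CPM on imatinib. All imatinib libraries were above all vehicle libraries, at a low level (log2 fold change 1.82, standard error 0.30, edgeR adjusted p = 0.0106). Plin3, a coat protein of lipid droplets, rose from 53.6 to 83.7 CPM (log2 fold change 0.64, edgeR adjusted p = 0.014). Of 9 tested genes of fatty acid uptake and binding, 0 passed in edgeR, against 3 higher and 0 lower at an unadjusted p under 0.05 and 1 higher in DESeq2. Lpl, the lipoprotein lipase, which had the most counts of these, was at 123 CPM on vehicle and 126 CPM on imatinib.

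Of 16 tested regulators of fatty acid genes, 0 rose and 1 fell, with a median log2 fold change of -0.17. Esrra, the estrogen-related receptor α, which is known to activate genes of mitochondrial oxidation, was at 45.4, 51.4 and 44.6 CPM on vehicle and at 23.1, 34.3 and 30.4 CPM on imatinib. The groups did not overlap, and Esrra lay in the direction opposite to the mitochondrial members (log2 fold change -0.69, standard error 0.16, edgeR adjusted p = 0.0252). At an unadjusted p under 0.05, 1 regulator was on the higher side and 4 were on the lower side (14.2% and 16.8% of all genes). DESeq2 called 0 regulators higher and 2 lower (9.84% and 12.2% of all genes). Of 12 other synthesis enzymes tested, 0 rose and 1 fell, against 3 higher at an unadjusted p under 0.05 and 1 higher in DESeq2. The 1 that fell was Fads3, a member of the desaturase family, from 16.4 to 6.36 CPM (log2 fold change -1.37, edgeR adjusted p = 0.0192).

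Markers of other cell types moved with treatment beside these genes. Of all genes, 6.15% were higher and 8.42% lower in edgeR, and 9.84% and 12.2% in DESeq2. At an unadjusted p under 0.05, the shares were 14.2% and 16.8%. Of 11 γδ T cell markers 3 rose and 0 fell, and Trdc rose from 517 to 1041 CPM (log2 fold change 1.01, edgeR adjusted p = 0.0274). The macrophage and monocyte list had 2 of 13 higher, Lyz2 and Mrc1, and 0 lower, against 4 lower in DESeq2 and 3 at an unadjusted p under 0.05, with a median of -0.43. Its sum was lowest in imatinib 1. Of the 7 members with a negative log2 fold change, 6 (all but Acsl3) were lowest among the imatinib libraries in imatinib 1, where the γδ T cell sum was highest. Markers of GIST and interstitial cells of Cajal summed to 26.9 to 33.1 CPM on vehicle and to 301, 82.4 and 210.1 CPM on imatinib, and 3 of 5, Kit among them (log2 fold change 2.70, edgeR adjusted p = 0.0173), rose. Of the imatinib libraries, imatinib 2 had the lowest sums of both GIST and γδ T cell markers. There, 6 of the 8 members called higher were lowest, the others being Slc25a20 (imatinib 3) and Hsd17b10 (imatinib 1). How many of all genes were lowest in imatinib 1 or in imatinib 2 was not counted. On the main axis of variation among all genes tested (43.3% of the variance), imatinib 2 lay nearest the vehicle libraries (33.65). Imatinib 1 lay farthest from them (68.89). Any link of these orders to cell content was not tested. Leaving out imatinib 2 also raised the number of all genes called higher, from 1022 to 1171.

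Fibroblast genes summed to 68.1 to 237 CPM on vehicle and 336 to 663 CPM on imatinib, with 0 of 7 passing in edgeR, 5 in DESeq2 and 5 at an unadjusted p under 0.05. Neutrophil genes summed to 91.6 to 142 CPM and 134 to 401 CPM, with 0 of 6 tested genes passing in edgeR and 5 higher in DESeq2 and at an unadjusted p under 0.05. B and plasma cell genes summed to 3811 to 27286 CPM and 18781 to 28021 CPM, with 0 of 8 passing in edgeR and 1 higher by each of the other counts. These last 2 sums overlapped between groups. Intestinal epithelial genes (101 to 291 CPM and 175 to 461 CPM) and smooth muscle genes (13.3 to 31.0 CPM and 5.97 to 31.2 CPM) overlapped as well, with 0 called by edgeR or DESeq2 or at an unadjusted p under 0.05. Of the αβ T cell genes 3 of 6 rose (346 to 364 CPM and 432 to 533 CPM). The other 3 had negative log2 fold changes, among them Cd8a (-1.31). DESeq2 called 1 αβ T cell gene lower, and 2 were on the lower side at an unadjusted p under 0.05. Of the dendritic cell genes 1 of 7 rose and 1 fell (122 to 138 CPM and 141 to 157 CPM). Of the endothelial genes 1 of 5 fell (85.9 to 123 CPM and 91.2 to 127 CPM). Adipocyte genes summed to 0.258 to 0.612 CPM on vehicle and 0.989 to 1.47 CPM on imatinib, with Adipoq and Lep at 0 counts in every library. Only 1 of the 7 adipocyte genes was tested. It did not pass in edgeR but was higher in DESeq2 and at an unadjusted p under 0.05. Its mean on imatinib was 1.06 CPM, of a mean sum of 1.3 CPM. The part of the other cell types in the changes of the members was not tested.

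**Figure D4:**
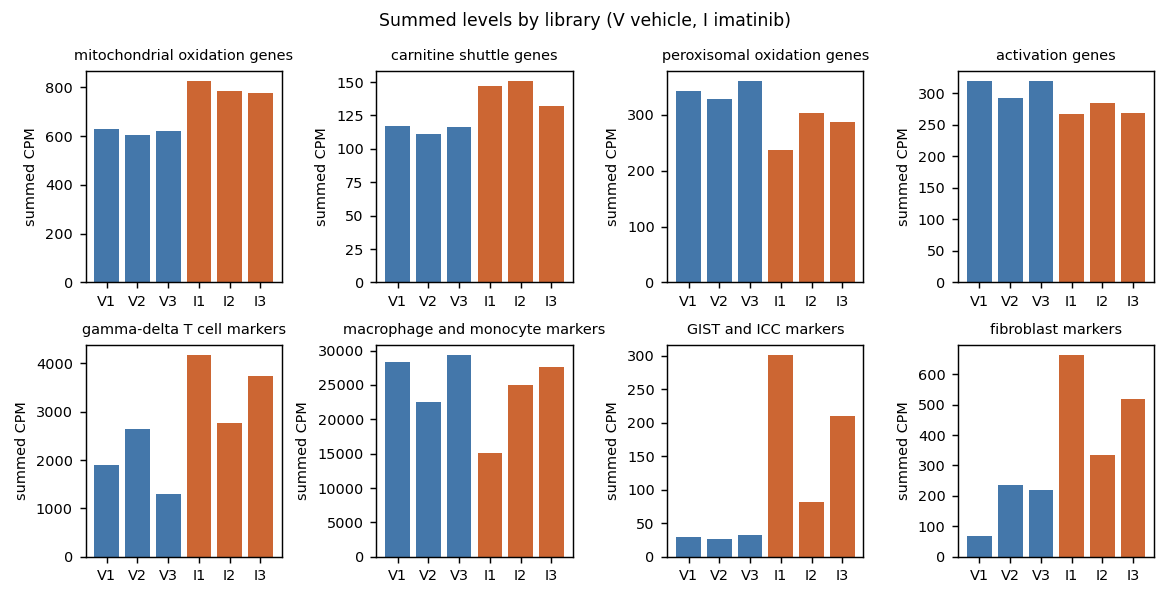
Summed CPM (y axes, from 0) of 4 fatty acid roles and 4 marker lists in vehicle libraries 1 to 3 (blue, V1 to V3) and imatinib libraries 1 to 3 (orange, I1 to I3). The mitochondrial sum is higher and the peroxisomal sum lower in every imatinib library, while γδ T cell, GIST and fibroblast markers are higher in all 3 and the macrophage sum is lowest in imatinib 1.

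Fold changes depended on the scale. With each library scaled to its counts of Cd3d, Cd3e and Cd3g, the median log2 fold change of all genes moved to -0.72, 0 members were higher and 5 were lower (Acsl1, Acsl4, Acox3, Hsd17b4 and Acaa1a), where 0.812% of all genes were higher and 28.1% lower. On that scale the median was -0.39 for mitochondrial oxidation and -1.02 for peroxisomal oxidation, which is 0.32 above and 0.30 below that of all genes. A change of scaling moves all genes nearly alike, so a distance from the median of all genes changes little with it by construction. When 1 library was left out in turn, mitochondrial oxidation lay 0.33 to 0.35 above that median, the carnitine shuttle 0.29 to 0.43 above, synthesis 0.21 to 0.3 above and the thioesterases 0.29 to 0.53 above. Peroxisomal oxidation (-0.36 to -0.2) and activation (-0.15 to -0.057) lay below it. These fits share most of their libraries and are not independent.

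**Figure D5:**
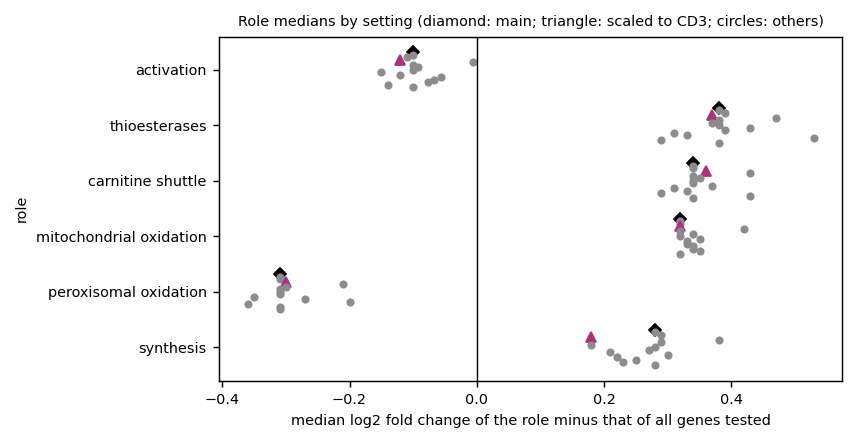
Median log2 fold change of each role minus the median of all genes tested (x axis) under 15 settings, with the reported setting as a diamond, scaling to CD3 counts as a triangle and the others as circles. Activation and peroxisomal oxidation lie left of 0 in all settings and the other 4 roles right of it.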

How the data were processed

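RNA-seq libraries of sorted mouse tumor γδ T cells, 3 from vehicle and 3 from imatinib, were analysed as deposited counts of reads for each gene. To make them, the authors aligned reads to mm10 (GRCm38 in the submitters' processing notes) with STAR and counted with featureCounts. The sources used here do not give the annotation, strand setting or treatment of multiply mapping reads, so counts of near-identical or antisense genes are uncertain.

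Of 57332 rows, 3016 without a gene name (0.118% to 0.158% of counts) were left out, 1013 exact repeats were counted once and rows of 78 symbols were summed. A further 3 columns match no sample and were not read. No pair of libraries agreed within sampling noise (lowest chi-square per gene 37.1), and each was 1 sample. edgeR 4.0.16 (R 4.3.3) was used with its default filter, TMM scaling and robust quasi-likelihood tests, with Benjamini-Hochberg adjustment over 16621 genes. The coefficient of variation between libraries was 29.1%. The script was tested on simulated data. Alternatives were RLE factors, library totals, CD3 scaling, other filters (none, or a mean of at least 50 counts), every row kept, DESeq2 1.42.0, a replicate block, other thresholds and leaving out each library.

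The members and lists were chosen with earlier results of these data known. The text names every member, up to 4 called genes of each other list with the smallest p (otherwise the gene with the highest mean) and up to 2 markers a list; Acss1 was named after its value was seen. Shares have 95% Wilson intervals. Similar sequence was searched at 95% identity or more over 200 bases in GENCODE M21 transcripts. Tables and plots used Python 3.11.15, pandas 2.3.3 and matplotlib 3.10.9.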

Additional observations from a re-analysis of the deposited data

How the results depend on the processing

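RLE factors, a mean of at least 50 counts and keeping every row gave the same 9 calls among the members. The number of members called higher was 8, against 5 with library totals (Acads, Acat1 and Acss2 lost), 0 with CD3 scaling, 0 with a replicate block, 0 with a log2 fold change beyond 1 as well, and 13 at an adjusted p under 0.1. The share of all genes at that looser threshold was not counted. Of all 16621 genes, library totals called 763 higher and 1608 lower, against 1022 and 1399 with TMM scaling. With no filter, 1024 were higher and 1593 lower of 27847. With no filter the number of members called higher was also 8, with Acads lost and Scd2 gained. It was 1 to 9 when 1 library was left out (1 without vehicle 1, 9 without imatinib 2). The number called lower was 1, against 2 with library totals, 5 with CD3 scaling, 2 with no filter, 2 with DESeq2, 0 with the fold threshold and 2 at an adjusted p under 0.1, and it was 0 to 2 when 1 library was left out. The replicate numbers did not pair the libraries (correlations of same-numbered libraries of -0.21, -0.0567 and -0.0636), and the replicate block left 173 genes higher and 437 lower of all genes. With CD3 scaling, which lowered the median of all genes to -0.72, medians were -0.84 for activation, -0.35 for thioesterases, -0.36 for the carnitine shuttle, -0.39 for mitochondrial oxidation, -1.02 for peroxisomal oxidation, -0.54 for synthesis and -0.45 for all members. Log2 fold changes turned to -0.34 for Acads, -0.13 for Hadh, -0.32 for Hadhb, -0.028 for Hsd17b10, -0.31 for Acat1 and -0.15 for Acss2, which is 0.38 to 0.69 above the median of all genes on that scale. The activation median ranged from -0.16 to -0.041 when 1 library was left out. The cause was not tested. With 3 libraries a group and a coefficient of variation of 29.1%, small changes could be missed, and a member that did not pass is not shown to be unchanged.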
